A study of Mus musculus with 12 samples.

Results

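The genes described here are Ppp1r1b, which encodes the dopamine- and cAMP-regulated phosphoprotein DARPP-32, and 7 genes related to it by family, partner or the cAMP pathway: Ppp1r1a, the 3 catalytic subunit genes Ppp1ca, Ppp1cb and Ppp1cc of protein phosphatase 1 (PP1), Ppp1r2, Arpp19 and Arpp21. They are 8 of the 24421 genes counted, and all 8 passed the filter on low counts, which kept 14564 genes. The group was chosen by the fear case to control difference of its first gene: Ppp1r1b was 1 of 15 genes called in that comparison, and the other 7 were added by family and function. The values of this comparison are therefore given for the 8 genes as a description and support nothing further.

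The data are RNA libraries from the hippocampus of C57/Bl6 mice aged 6 weeks, made from RNA that pelleted with ribosomes through a 1 M sucrose cushion. There are 6 control and 6 fear case libraries. The protocol text is worded alike for all 12 and gives 8 min in an unfamiliar place, 7 min in the home cage and collection at 15 min after first exposure; the series design text speaks of fear conditioning, but the labels give neither a shock nor what set the controls apart. The mice were housed singly for 2 days beforehand. No label says that every library comes from a mouse of its own, so p-values measure the spread between these libraries, which may be partly technical. Gene counts ranged from 18.6 M to 44.2 M per library. Fear case 6 was the deepest library, and it also stood apart from the other fear case libraries in its choroid plexus transcripts, as described below. It stood apart over all genes too. The chi-square per gene between 2 libraries was 87.9 to 133 for fear case 6 against each other fear case library. Among those others it was 8.09 to 34.1, and this measure grows with depth. In such bulk RNA, fewer cells of a type and less RNA per cell cannot be told apart, and because total RNA was not analysed here, a change in transcript amount cannot be told apart from a change in ribosome association.

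PP1 is a serine/threonine phosphatase that removes phosphate from receptors, channels, kinases and transcription factors, and in hippocampal neurons it is known as a brake on synaptic strengthening and memory storage. Its catalytic subunit is free or held by one of many regulatory subunits. DARPP-32 and inhibitor-1, the product of Ppp1r1a, inhibit it only after a threonine near their start has been phosphorylated, as protein kinase A does, and calcineurin removes that phosphate. DARPP-32 is best known from striatal spiny neurons, where dopamine acts through it, and is also made in other sites, among them the choroid plexus.

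The shared design of both inhibitors can be read in their coding sequences. The stretch below runs from the 4 codons of the PP1 docking motif to the codon after the regulatory threonine, both in capitals, and is shown because this is the part by which both proteins act on PP1. It was read from the GENCODE vM21 transcripts. The threonine is residue 34 of DARPP-32 and residue 35 of inhibitor-1, counted from the initiator methionine.
Ppp1r1b: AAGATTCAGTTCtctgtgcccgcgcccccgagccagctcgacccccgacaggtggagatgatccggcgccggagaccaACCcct
Ppp1r1a: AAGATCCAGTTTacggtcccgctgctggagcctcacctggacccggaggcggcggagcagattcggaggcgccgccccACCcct

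Both stretches have the same length of 84 bases and, compared position by position, differ at 33 of them. In that comparison no run of more than 6 bases is the same. Over the whole transcripts, at any position in either, the longest run that both genes share is 11 bases. The reads are 40 bases long, so none fits both genes without mismatches, and no 40-base window of Ppp1r1a occurred in a transcript of another gene.

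Ppp1r1b was lower in fear case than in control. Its level in control 1 to 6 was 67.0, 66.3, 74.0, 71.3, 74.2 and 57.3 CPM (the read count of a gene relative to the library's total, scaled for composition). In fear case 1 to 6 it was 48.1, 32.6, 37.8, 28.3, 46.1 and 48.4 CPM. The groups did not overlap: the highest fear case library lay below the lowest control. The means were 68.4 ± 6.38 and 40.2 ± 8.59 CPM (SD, n = 6 each), a difference of 1.70-fold, or 41.1% lower in fear case (log2 fold change -0.76, SE 0.11, 95% interval -0.998 to -0.53). Fear case libraries also differed more among themselves, by 1.71-fold from lowest to highest against 1.29-fold in the controls. Between 640 and 1940 reads per library stood behind these levels.

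Among the 8 genes, 1 was called by edgeR's quasi-likelihood test with Benjamini-Hochberg adjustment over all genes tested, against 0.103% of all genes. That gene was Ppp1r1b, whose call chose the group. Groups without overlap were seen in 1 of the 8 genes and in 0.597% of all genes tested. The other 7 genes had log2 fold changes from -0.02 to 0.09 with adjusted p from 0.798 to 0.973, 6 of them positive. The lowest and highest bounds of their 95% intervals were -0.16 and 0.22. The median over the 8 genes was 0.03, beside -0.0046 over all genes tested.

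**Figure D1:**
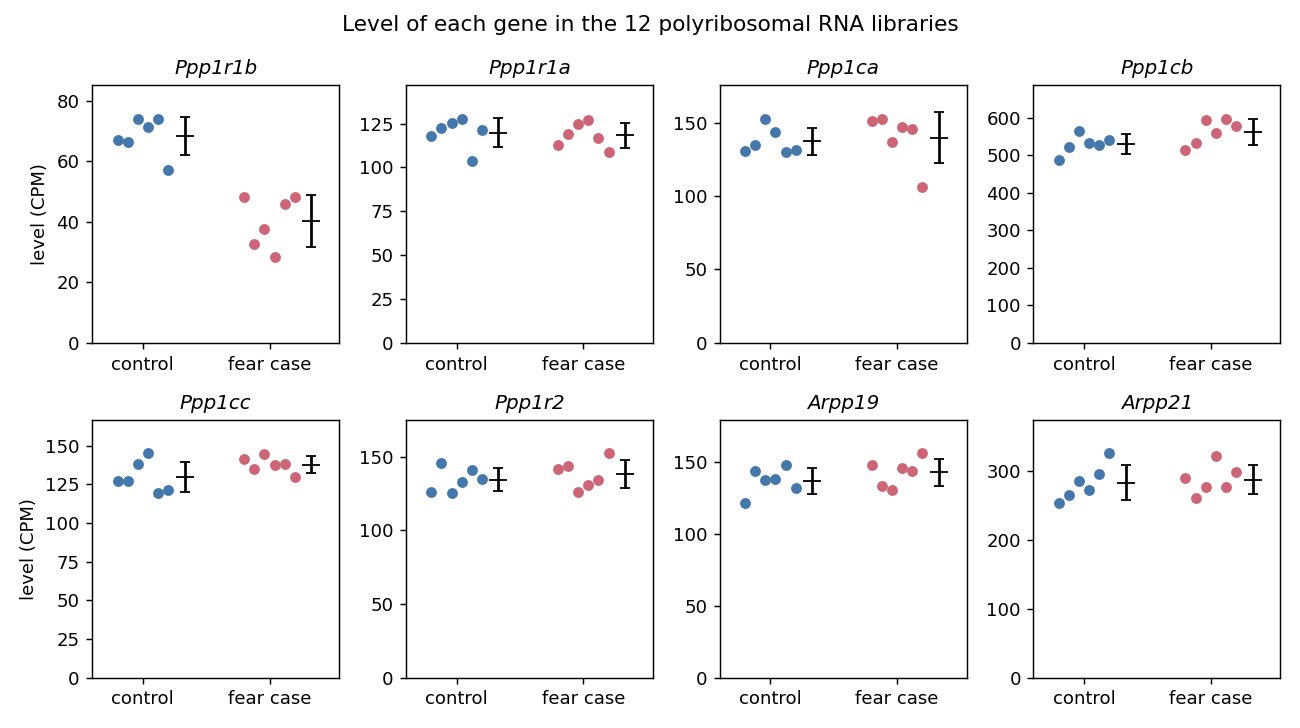
Level of each gene in CPM (linear axes from 0) in the 6 control (blue) and 6 fear case (red) libraries, in order of their number, with the mean and SD beside each group in black. Ppp1r1b is the panel in which the groups do not overlap; in the other 7 panels they do.

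Ppp1r1a, the closest relative of Ppp1r1b by function, ranged from 104 to 128 CPM in the controls with a median of 122 CPM. In fear case it ranged from 109 to 127 CPM with a median of 118 CPM, so the fear case libraries lay within the control range. Its log2 fold change was -0.02 (SE 0.07, 95% interval -0.16 to 0.12). Within each library, the ratio of Ppp1r1b to Ppp1r1a reads averaged 0.573 ± 0.0794 in control, from 0.472 to 0.713, and 0.344 ± 0.0900 in fear case, from 0.222 to 0.443 (SD, n = 6 each). This ratio needs no scaling between libraries, and its groups did not overlap. With Ppp1r1a nearly level, the ratio repeats the difference in Ppp1r1b by which these genes were chosen and adds no support. After the group means were removed, Pearson r of their log2 CPM was -0.54 over the 12 libraries, a description over libraries that differ in depth.

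The 3 catalytic subunit genes encode PP1 alpha, beta and gamma, which share an almost unchanged active site. The first 60 bases from the metal-binding motif of that site are printed to show how far the genes differ where the proteins are most alike. Capitals mark the 23 positions at which the 3 genes are not all the same.
Ppp1ca: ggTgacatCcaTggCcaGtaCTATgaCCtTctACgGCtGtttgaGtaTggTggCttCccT
Ppp1cb: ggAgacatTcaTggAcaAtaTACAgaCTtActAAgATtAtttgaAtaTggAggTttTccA
Ppp1cc: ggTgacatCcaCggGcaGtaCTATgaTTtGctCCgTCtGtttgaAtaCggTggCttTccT

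In this window Ppp1ca and Ppp1cc differ at 10 bases, Ppp1ca and Ppp1cb at 19, and Ppp1cb and Ppp1cc at 20. Elsewhere in their coding sequences, Ppp1ca and Ppp1cc share a run of 44 bases, longer than a read, while Ppp1cb shares at most 20 with Ppp1ca and 23 with Ppp1cc. Of the 40-base windows of Ppp1cc, 40.9% also occur in a transcript of another gene, most often the retrocopy Ppp1ccb. The deposited counts keep reads with more than 1 alignment apart from the genes, so reads from such windows may be missing from the level of Ppp1cc.

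Ppp1cb had the highest counts of the 8 genes. It ranged from 486 to 566 CPM in control (median 530.2 CPM) and from 513 to 598 CPM in fear case (median 569 CPM), and 3 fear case libraries lay above all controls. Its log2 fold change was 0.09 (SE 0.06, 95% interval -0.04 to 0.22). Ppp1cc ranged from 119.5 to 145 CPM in control (median 127 CPM) and from 129.6 to 145 CPM in fear case (median 138 CPM), with a log2 fold change of 0.09 (SE 0.06, 95% interval -0.04 to 0.22). For both genes the ranges overlapped and the interval of the difference included 0.

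Ppp1ca ranged from 130.01 to 153 CPM in control (median 133 CPM) and from 106 to 152 CPM in fear case (median 146 CPM). The lowest of these values was fear case 6, at 106 CPM, while the other 5 fear case libraries lay between 137 and 152 CPM. The log2 fold change was 0.03 (SE 0.08, 95% interval -0.14 to 0.19) with all 12 libraries and 0.094 without fear case 6 (edgeR adjusted p = 0.752). Per kilobase of exon, the 3 genes made up similar shares of the catalytic transcripts in both groups. Ppp1ca held 38.7 ± 0.581% in control and 37.6 ± 3.37% in fear case, Ppp1cb 34.5 ± 1.301% and 35.1 ± 2.87%, and Ppp1cc 26.9 ± 1.078% and 27.3 ± 0.881% (SD, n = 6 each). On the longest protein-coding transcripts, a scale added after the data were seen, the control shares were 39.4% for Ppp1ca, 37.6% for Ppp1cb and 23.0% for Ppp1cc. In fear case 6 the Ppp1ca share per kilobase of exon was 31.7%, the lowest of the 12. Ppp1r1b amounted to 16.6 ± 1.46% of the catalytic sum per kilobase in control and to 9.38 ± 2.27% in fear case.

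Ppp1r2 encodes inhibitor-2, which binds PP1 without needing protein kinase A and is controlled by other kinases. It ranged from 126 to 145 CPM in control (median 134 CPM) and from 126 to 152 CPM in fear case (median 138 CPM), and the ranges overlapped almost fully. Its log2 fold change was 0.04 (SE 0.07, 95% interval -0.09 to 0.18). Of its 40-base windows, 9.77% also occur in another annotated transcript, mostly processed pseudogenes of Ppp1r2.

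Arpp19 and Arpp21 encode small cAMP-regulated phosphoproteins first described beside DARPP-32 in the striatum. Arpp21 has 31 transcripts in GENCODE, and with 1 count per gene its level cannot be assigned to the small product alone. ARPP-19 is known for another phosphatase, PP2A: once phosphorylated by the Greatwall kinase it inhibits that enzyme. Arpp19 ranged from 122 to 148 CPM in control (median 138 CPM) and from 130.2 to 156 CPM in fear case (median 145 CPM), with a log2 fold change of 0.06 (SE 0.07, 95% interval -0.07 to 0.20). Arpp21, whose product binds calmodulin when phosphorylated, ranged from 253 to 325 CPM in control (median 279 CPM) and from 261 to 322 CPM in fear case (median 283 CPM). Its log2 fold change was 0.02 (SE 0.07, 95% interval -0.13 to 0.17). All fear case values of Arpp21 lay within the control range, and 2 fear case libraries of Arpp19 lay above it. With the group means removed, Arpp19 and Ppp1r2 had r = 0.65 over the 12 libraries and Ppp1r1a with Ppp1cc r = 0.67, the highest 2 of the pairs among the 8 genes.

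**Figure D2:**
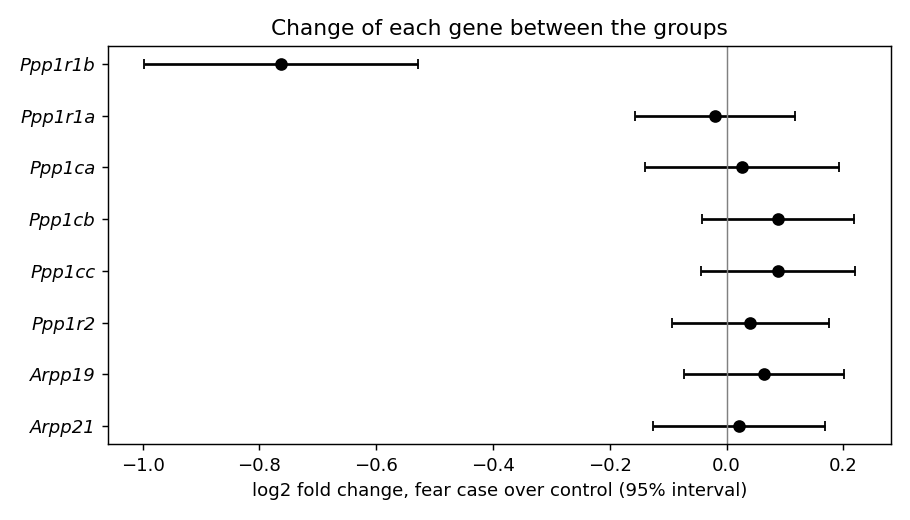
Log2 fold change of each gene, fear case over control, from edgeR's fit over all genes; bars are 95% intervals and the grey line marks no change. The interval of Ppp1r1b runs from -0.998 to -0.53, and those of the other 7 genes include 0.

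Levels of different genes were compared per kilobase of exon, with all annotated exons of a gene joined. In the controls the order was Ppp1r1a (91.8 ± 6.52 CPM per kb), Ppp1ca (54.5 ± 3.63), Ppp1cb (48.5 ± 2.40), Ppp1cc (37.9 ± 2.90), Ppp1r2 (30.3 ± 1.80), Arpp19 (27.6 ± 1.85), Ppp1r1b (23.3 ± 2.18) and Arpp21 (16.2 ± 1.47; SD, n = 6 each). The control ranges of neighbours overlapped for Ppp1ca and Ppp1cb, for Ppp1r2 and Arpp19, and for Arpp19 and Ppp1r1b, although within each control library the order was the same for all 8 genes (6 of 6 for each pair of neighbours). In fear case Ppp1r1b stood at 13.7 ± 2.93 CPM per kb, last of the 8, with a range that overlapped that of Arpp21 (16.5 ± 1.21), though it was the lower of the pair in 6 of 6 libraries. Per kb, the ratio of Ppp1r1b to Ppp1r1a averaged 0.256 in control and 0.153 in fear case. The order depends on the transcript that is assumed. On the length of the longest protein-coding transcript, a scale added after the data were seen, Ppp1ca (93.2 CPM per kb in control), Ppp1r1a (91.8) and Ppp1cb (88.7) lay close together at the top, so Ppp1r1a was no longer first. Arpp21 stood at 71.5 CPM per kb in control, above Ppp1cc (54.4), while Ppp1r1b (34.2), Arpp19 (33.8) and Ppp1r2 (32.9) lay side by side.

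**Figure D3:**
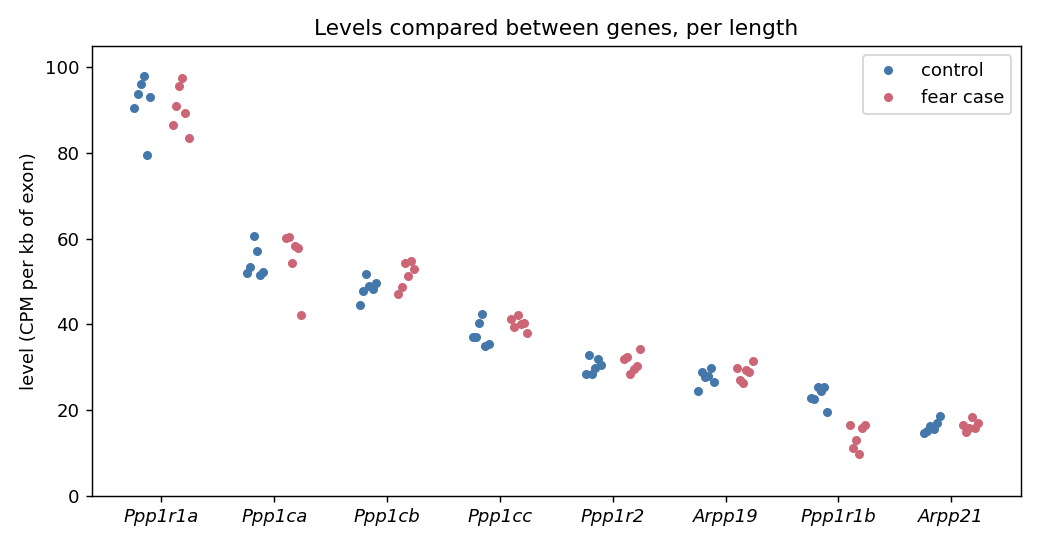
Level in CPM per kilobase of joined exons (linear axis from 0) for the 8 genes, ordered by their control mean; each dot is a library, control in blue and fear case in red. Ppp1r1a lies highest in both groups, and Ppp1r1b is the gene whose red dots lie apart from the blue.

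In the GENCODE annotation of GRCm38, Ppp1r1b (ENSMUSG00000061718) spans chr11:98348404-98357796 on the plus strand. Ppp1r1a spans chr15:103530279-103538003 (minus), Ppp1ca chr19:4192065-4195420 (plus), Ppp1cb chr5:32458843-32517433 (plus) and Ppp1cc chr5:122158278-122175273 (plus). Ppp1r2 spans chr16:31251537-31275277 (minus), Arpp19 chr9:75037614-75060313 (plus) and Arpp21 chr9:112065091-112235938 (minus). All are protein-coding genes, and the files give 1 count per gene. The exons of Ppp1r1b overlap those of 1700003D09Rik, a noncoding gene on the opposite strand, over 460 bases or 15.7% of its exon length. With the strand setting unknown, reads of this overlap may have been set aside or given to either gene. The noncoding gene held 90 reads in the 12 libraries together and at most 0.857 CPM in any of them. Exons of Ppp1ca overlap Rad9a over 225 bases and those of Arpp21 overlap 2900079G21Rik over 580 bases, both on the opposite strand; Gm43312, which overlaps Ppp1cb on the same strand, was not among the genes counted. Rad9a lay between 3.24 and 5.43 CPM and 2900079G21Rik between 8.76 and 15.6 CPM, without a separation of the groups.

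Ppp1r1b was set beside markers of other cell types that a hippocampal dissection can hold. Choroid plexus epithelium secretes cerebrospinal fluid, and its 20 markers all had lower fear case estimates, with a median log2 fold change of -1.47. Their summed level was 1143 to 3034 CPM in control, 139.8 to 635 CPM in fear case 1 to 5 and 2307 CPM in fear case 6. With edgeR 0 of the 20 passed, and 18 had an unadjusted p under 0.05; DESeq2 and limma-voom also called 0, while 19 were called by edgeR without fear case 6. Ttr, the most abundant marker, was at 7.41 CPM in fear case 2 and 7.96 CPM in fear case 4, at 1319 CPM in fear case 6 and from 641 to 1978 CPM in the controls. Enpp2, the next most abundant, had a log2 fold change of -0.97 (SE 0.40, edgeR adjusted p = 0.613).

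In the 2 libraries with the least Ttr, Ppp1r1b was 32.6 and 28.3 CPM, the lowest of the 12. In fear case 6, where Ttr was within the control range, Ppp1r1b was 48.4 CPM, against 57.3 CPM in the lowest control. Over the 6 fear case libraries the log2 level of Ppp1r1b had r = 0.89 with the mean of the choroid plexus markers, and over the 6 controls r = 0.45. Leaving out fear case 6 gave a log2 fold change of -0.83 for Ppp1r1b. With the choroid plexus mean as a covariate the log2 fold change was -0.42 (SE 0.12) and the call was lost (edgeR adjusted p = 0.506, unadjusted p = 0.0016). Over all genes, that fit called 5, of which 0 were lower in fear case. Without the covariate 15 were called, 8 of them lower. The choroid plexus mean itself nearly separated the groups. It was 3.52 to 4.54 in control, -0.40 to 2.72 in fear case 1 to 5 and 4.24 in fear case 6. This fit therefore cannot tell the covariate and the group apart, and smaller group estimates can follow from their overlap alone. The part of choroid plexus cells in the difference was not tested.

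Markers of the motile cilia of ependyma, the cells that line the ventricles, were lower in sum in all fear case libraries. Their summed level was 56.1 to 71.6 CPM in control and 33.2 to 45.8 CPM in fear case (fear case 6 at 45.8 CPM), with no overlap. Over the 6 controls r with Ppp1r1b was 0.82, and over the 6 fear case libraries it was 0.84. Of the 9 tested markers 8 had lower fear case estimates and 1, Ccdc153, a higher one (log2 fold change 0.12, SE 0.23). The median log2 fold change of the 9 was -0.70. With edgeR 1 passed, Tekt1, a filament protein of cilia (log2 fold change -1.02, edgeR adjusted p = 0.0483), and 6 reached an unadjusted p of less than 0.05. DESeq2 called 5 and limma-voom 0. No marker was called when any one of controls 1 to 5 or fear case 2 to 5 was left out, and 4 were called without fear case 6. The part of ependymal cells in the difference was not tested.

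**Figure D4:**
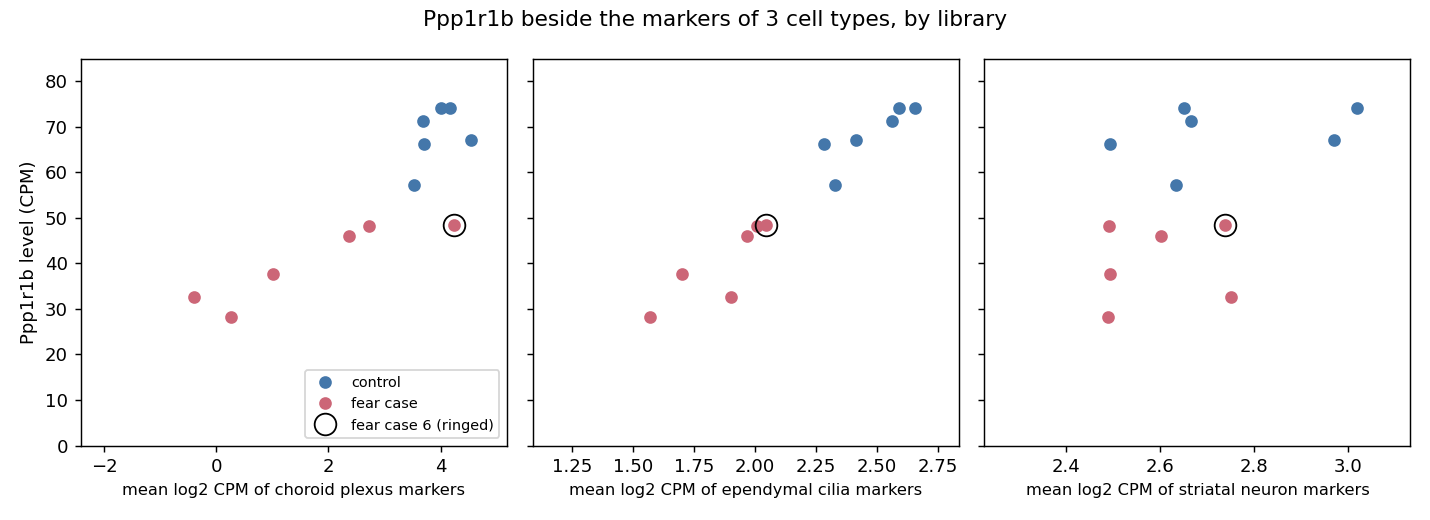
Level of Ppp1r1b in CPM against the mean log2 CPM of the tested choroid plexus (20), ependymal cilia (9) and striatal neuron (14) markers; each dot is a library, control in blue, fear case in red and fear case 6 ringed. In the first panel fear case 6 lies among the controls on the horizontal axis and below them on the vertical axis; in the second, all fear case libraries lie to the left of and below all controls.

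Striatal spiny neurons, the classical site of DARPP-32, were followed by 14 tested markers. With edgeR 0 passed, as with DESeq2 and limma-voom, and 0 reached an unadjusted p of less than 0.05. Their median log2 fold change was -0.11, with 11 negative and 3 positive estimates. Their summed level was 258 to 305 CPM in control (median 272 CPM) and 256 to 300.4 CPM in fear case (median 259 CPM). In 3 fear case libraries the sum lay below all controls. Most of that sum came from Pde10a and Adcy5, enzymes of cAMP turnover, at means of 97.8 and 69.5 CPM. The defining receptors, named after their values were seen, were low: Drd1 lay between 2.34 and 4.64 CPM over the 12 libraries, Drd2 between 0.466 and 1.94 CPM and Adora2a between 0.212 and 2.43 CPM. The mean of all 14 tested markers had r = 0.34 with Ppp1r1b over the 6 controls and 0.14 over the 6 fear case libraries.

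Markers of the principal cells of the hippocampus were present, with Prox1 of dentate granule cells at a mean of 119.7 CPM, Pex5l among the CA1 markers at 299.7 CPM and Elavl2 among the CA3 markers at 100.2 CPM. Over these 3 lists, the striatal list and the lists of cortex, thalamus, astrocytes, oligodendrocytes, microglia and vessels, 0 of 89 tested genes passed with edgeR, DESeq2 or limma-voom, and 4 had an unadjusted p under 0.05. Medians of the 10 lists lay between -0.13 and 0.04. The most abundant cortex and thalamus markers were Fezf2, at a mean of 66.0 CPM, and Rora, at 71.6 CPM. These levels are not scaled by gene length, so they do not by themselves tell the regions apart. Among these lists, r with Ppp1r1b reached 0.62 for dentate granule cells over the 6 fear case libraries and 0.62 for oligodendrocytes over the 6 controls, against -0.33 and -0.36 in the other group. Cortex markers had r = -0.61 over the 6 controls. Over the 5 fear case libraries without fear case 6, r was 0.91 for dentate granule cells and -0.87 for vessels. The choroid plexus markers had 0.92 there, so r of this size over so few libraries was not particular to them.

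Among the 5 genes whose pattern over the 12 libraries was most like that of Ppp1r1b were Calml4, Spata18, Ucp2 and Cdr2, out of the 13503 tested genes whose mean reached 1 CPM. Their Pearson r of log2 CPM ranged from 0.93 for Cdr2 to 0.95 for Calml4, and the group difference enters these values. Ucp2, a mitochondrial carrier gene, fell from 31.9 ± 6.62 to 16.7 ± 6.46 CPM (log2 fold change -0.92, edgeR adjusted p = 0.0483). With the group means removed, the 5 closest were Calml4 (r = 0.93), Erich2 (0.92), Spata18 (0.92), Slc4a5 (0.91) and Prr32 (0.91). Calml4, which encodes a calmodulin-like protein, had means of 17.2 ± 3.38 CPM in control and 5.32 ± 4.42 CPM in fear case and did not pass (log2 fold change -1.67, SE 0.40, edgeR adjusted p = 0.151). Calml4 and Slc4a5, a bicarbonate transporter gene, are members of the choroid plexus list. None of the other 7 genes was near: with group means removed the highest was Arpp19, at r = 0.43, and the lowest was Ppp1r1a.

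The wider pathway was followed in 124 further genes, listed by role, of which 111 were tested. With edgeR 0 rose, 0 fell and 111 did not pass, and DESeq2 and limma-voom also called 0. An unadjusted p under 0.05 was seen for 9 genes, 8 of them lower in fear case, or 8.11% of those tested against 7.14% of all genes. Over all genes, such p-values also leaned lower, with 658 of 1040 lower in fear case. The median log2 fold change was 0.0077, with 57 positive and 54 negative estimates. The signalling step around Ppp1r1b held no other gene past the threshold, and the share of low p-values differed between the lists.

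**Figure D5:**
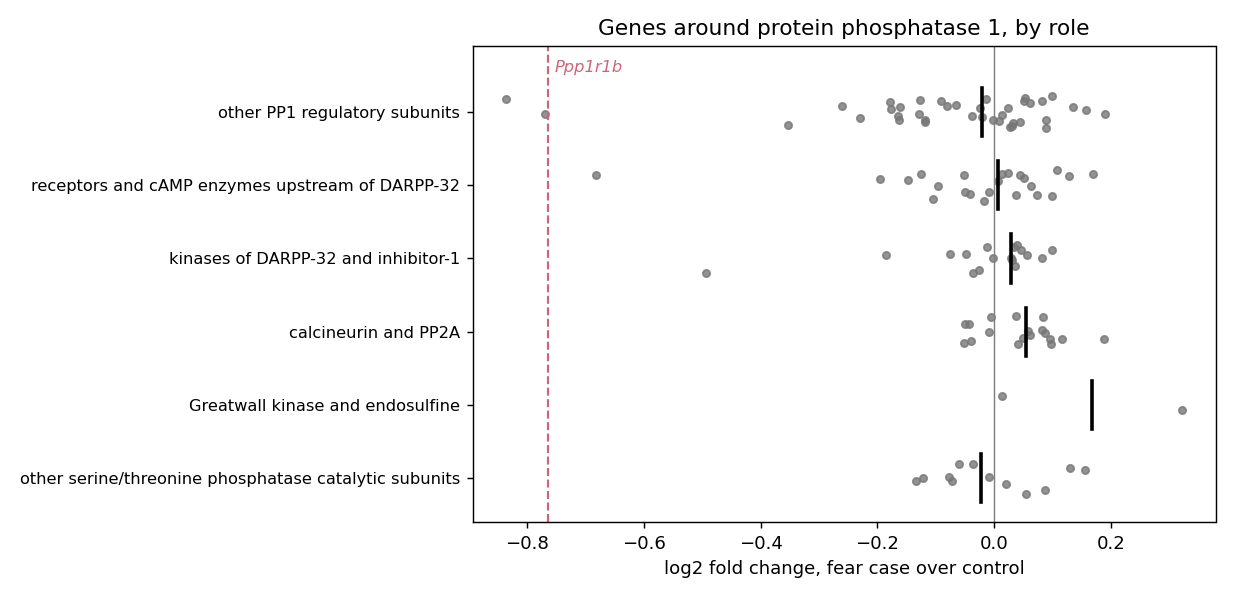
Log2 fold change, fear case over control, of the 111 tested pathway genes by role; each dot is a gene, the black bar is the median of the list, and dots are spread vertically for visibility only. The dashed red line marks Ppp1r1b at -0.76; most genes lie near 0.

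Other regulatory subunits steer PP1 to its substrates. Of 45 listed, 39 were tested, 0 passed and the median log2 fold change was -0.02, with 6 unadjusted p-values under 0.05, all lower in fear case. These 6 are 15.4% of the list, beside 7.14% of all genes tested, of which 658 of 1040 were lower in fear case. The lowest p belonged to Ppp1r3b, a subunit that brings PP1 to glycogen, at 2.84 to 3.87 CPM in control and 1.11 to 3.12 CPM with fear case (a log2 fold change of -0.84, SE 0.27, edgeR adjusted p = 0.404). Next came Ppp1r14b, a phosphorylation-dependent PP1 inhibitor, at 17.3 to 23.1 CPM in control and 14.5 to 22.04 CPM in fear case (-0.26, SE 0.11, adjusted p = 0.618). For both genes the groups overlapped.

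Receptors and cAMP enzymes set the activity of protein kinase A upstream of DARPP-32. Of 26 listed, 23 were tested, 0 passed and the median was 0.0060. Pde1a, a calcium-dependent phosphodiesterase gene, ranged from 405 to 441 CPM in control and from 444 to 500.2 CPM in fear case. All fear case values were higher, yet the difference was small (log2 fold change 0.17, SE 0.06) and did not pass (edgeR adjusted p = 0.464). Gnas, the gene of the stimulatory G protein subunit, had a log2 fold change of -0.11 (SE 0.06, edgeR adjusted p = 0.755).

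Kinases that phosphorylate DARPP-32 or inhibitor-1 were listed together with their regulatory subunits and activators. Of these genes 17 of 17 were tested, 0 passed and the median was 0.03. Prkg2 encodes a cGMP-dependent kinase, an enzyme class that acts on the same threonine as protein kinase A. It ranged from 8.24 to 12.1 CPM in control and from 5.02 to 7.78 CPM in fear case, so its groups did not overlap, and the difference did not pass (log2 fold change -0.49, SE 0.14, edgeR adjusted p = 0.257). Cdk5r2, an activator of the kinase Cdk5, had a log2 fold change of -0.19 (SE 0.08, edgeR adjusted p = 0.600). Prkg2 and Pde1a were the 2 pathway genes of 111 whose groups did not overlap, 1.80% beside 0.597% of all genes tested.

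Calcineurin and PP2A oppose these kinases. Of 18 tested genes of both, 0 passed, 0 had an unadjusted p under 0.05 and the median was 0.05, with Ppp2cb at 0.12 (SE 0.06, edgeR adjusted p = 0.742) and Ppp2r5a at 0.095 (SE 0.06, adjusted p = 0.786). The Greatwall kinase gene Mastl, at a mean of 2.65 CPM, had a log2 fold change of 0.32 (SE 0.23, edgeR adjusted p = 0.801). Ensa, the relative of Arpp19 on which the same kinase acts, had 0.01 (SE 0.06, adjusted p = 0.982). Of 12 tested catalytic subunit genes of other serine/threonine phosphatases 0 passed, 0 had an unadjusted p under 0.05 and the median was -0.02, with Ppm1f at -0.13 (SE 0.07, edgeR adjusted p = 0.742) and Ppm1k at 0.16 (SE 0.08, adjusted p = 0.721).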

How the data were processed

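RNA of 12 libraries (6 control, 6 fear case, by their sample group label) was sequenced as 40 bp read pairs. The authors deposited unnormalized counts per gene, a file for each library. Per the submitters' processing notes, cutadapt, TopHat, Bowtie, HTSeq and mm10 were used; their versions, the annotation and the strand setting were not stated there. Counter summary lines were kept out. Of the reads that were counted to a gene, fell on no gene or were ambiguous, 25.5% to 33.3% fell on no gene. Alignments that were not unique, 67.8 M to 115.4 M per library by the counter, are outside this share.

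Tests used edgeR 4.0.16 in R 4.3.3: filterByExpr (minimum count 10, total 15), TMM, the quasi-likelihood test without covariates, and Benjamini-Hochberg adjustment over 14564 genes with a threshold of 0.05. Standard errors are log2 fold changes divided by the root of F. Log2 CPM carry a prior count of 2. With 18.6 M to 44.2 M counts per library, each of the 8 genes had at least 640 reads. The test was checked on simulated counts. Alternatives were DESeq2 1.42.0 (on all genes with a count), limma-voom (limma 3.58.1), other scalings, no filter, a replicate block, a choroid plexus covariate and each library left out.

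Coordinates, lengths and sequences came from GENCODE vM21 (GRCm38). The genes and lists were chosen with earlier results of these data known. Named genes were the 8, called pathway genes or else the 2 lowest p of each pathway list, the most abundant markers, the 5 genes most like Ppp1r1b by each correlation, and overlapping genes; others were named after their values were seen. One gene that this rule names is not reported here.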

Additional observations from a re-analysis of the deposited data

Results flagged for a closer look

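In 16 groups of 6 libraries (the 8 genes in each condition), 1 library lay far from the rest of its group by Dixon's criterion. It was fear case 6 for Ppp1ca, at 106.2 CPM. Chance alone gives about 1 such group in 20. Fear case 6 is also the deepest library.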

How the results depend on the processing

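Under 19 alternatives, the log2 fold change of Ppp1r1b was negative in all and called in 18. With the choroid plexus mean as a covariate it was -0.42 (SE 0.12, edgeR adjusted p = 0.506), and the number of the 8 genes called was 0; the cause was not tested. Leaving out 1 library gave -0.83 to -0.68, and DESeq2 and limma-voom gave -0.76 and -0.78. With the replicate number as a block it was -0.78 (SE 0.12, edgeR adjusted p = 0.0131). Same-numbered libraries did not deviate together (r from -0.17 to 0.05). These r values cannot decide whether the numbers pair the libraries in the design. None of the other 7 genes was called under any of the 19; Ppp1ca moved to -0.14 with the covariate, and Ppp1r1a, Ppp1ca and Arpp21, all near 0, changed sign under 2, 3 and 3 of the 19. No pathway gene was called under any of them. Called choroid plexus markers rose from 0 to 19 without fear case 6 and to 1 without the low-count filter. Called cilia markers, 1 as reported, were 5 with DESeq2, 3 without TMM or without the filter, 0 with limma-voom, the block or the covariate, and 0 to 4 with a library left out. Over all genes, 15 were called as reported, 61 with DESeq2 (which was run without the edgeR filter, on 21615 genes, so that tool and filter changed together), 33 without TMM, 37 without the filter, 5 with the covariate and 128 without fear case 6; leaving out another single library gave 9 to 15. Repeated copies limit Ppp1cc most, and the 95% intervals of the 7 genes give the differences that these libraries do not exclude.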
